A study of Danio rerio with 24 samples.

Results

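The genes described are the nuclear-encoded subunits of mitochondrial complexes III, IV and V in zebrafish. They were taken as every row of the count tables whose gene symbol, case ignored, begins with uqcr, with cox followed by a digit from 4 to 8, or with atp5, or is cyc1. This rule gave 47 of the 32105 Ensembl genes counted, of which 9 belong to complex III, 18 to complex IV and 20 to complex V. All 47 carried enough reads to pass the filter on low counts in each main fit, while cox7a1 was not tested in every alternative. Symbols in capitals are those of the human ortholog. COX5B stands for a pair of zebrafish genes, as does COX6A1 when case is ignored, so their Ensembl identifiers are given and the assignment of reads between such near copies is uncertain.

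The study sequenced total RNA from 24 libraries, with 3 biological replicates in each of 8 groups. Zebrafish embryos were exposed to the solvent DMSO or to PCB126, a chlorinated biphenyl that is a strong agonist of the aryl hydrocarbon receptor, and were afterwards kept in clean water. Whole embryos exposed to DMSO or 0.3 nM PCB126 were sampled at 48 hours after fertilization. Whole larvae that had been exposed as embryos to DMSO, 0.3 nM or 1.2 nM PCB126 were sampled at 5 days after fertilization. Brains of adults aged 4 months came from fish that had received DMSO, 0.3 nM or 1.2 nM PCB126 as embryos, so adult differences were measured months after exposure. The sources used here do not give strain, sex or the number of animals in a library. The brain RNA was extracted by another method than the embryo and larva RNA.

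Complex III passes electrons from ubiquinol to cytochrome c and pumps protons across the inner mitochondrial membrane. Complex IV, cytochrome c oxidase, passes those electrons to oxygen and pumps further protons, and complex V, the ATP synthase, uses the proton gradient to make ATP. A few subunits are encoded in mitochondrial DNA, and the nuclear genome encodes the others, many of them in several forms that differ between tissues. Neurons are known for a high demand for mitochondrial ATP.

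Library totals ran from 12480715 to 23022236 counted reads, and all 3 DMSO brain libraries, at 19498374 to 23022236, were deeper than any exposed brain library, at 13097392 to 18043641. CYP1A1, the textbook target of the aryl hydrocarbon receptor, measured 10.6 to 18.6 CPM (read counts scaled to library size) in DMSO embryos and 144 to 236 CPM in exposed embryos (edgeR quasi-likelihood test, log2 fold change 3.65, adjusted p = 0.00239). In larvae it measured 27.1 to 30.0 CPM with DMSO, 67.0 to 162 CPM with 0.3 nM and 411 to 1067 CPM with 1.2 nM, and neither dose passed an adjusted p of 0.05. In brain it stayed between 0.359 and 2.40 CPM with no call. DMSO brain replicate 3 stood apart in markers of other tissues: 13 skeletal muscle markers summed to 668.8 CPM there against 9.94 to 83.1 CPM in the other 8 brain libraries, and 7 markers of meninges and fibroblasts to 2301 CPM against 145 to 522 CPM. Values of the members that it moves most are given with and without it.

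In adult brain, the subunit genes were lower after embryonic exposure to 0.3 nM PCB126. The 47 genes together summed to 5823, 5570 and 6272 CPM in the DMSO brains and to 4777, 3922 and 4082 CPM in the 0.3 nM brains, a mean of 5888 ± 355 (SD, n = 3) against 4260 ± 454 (SD, n = 3) and a change of -27.6%. Each exposed library lay below each DMSO library. By the quasi-likelihood test of edgeR, with p-values adjusted over the 19548 genes that passed the filter, 38 of the 47 fell at an adjusted p under 0.05 and none rose, where 5.9% of all genes tested fell. The median log2 fold change was -0.50 over the members and -0.02 over all genes tested. In 43 of the 47 every exposed library was below every DMSO library, against 16.3% of all genes tested. In bulk tissue, fewer cells of a type and less RNA per cell cannot be told apart.

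Of the 38 genes called, 23 passed in all 15 alternative analyses, 6 of which each left out a library. Without 0.3 nM replicate 2 the count was 23 and without 0.3 nM replicate 3 it was 25. Leaving out DMSO replicate 3, the brain library that stood apart in tissue markers, also lowered the count, as given with atp5mea below. Among the 3 exposed brains, replicate 1 held the highest value for 39 of the 47 members, and without it 42 were called.

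**Figure D1:**
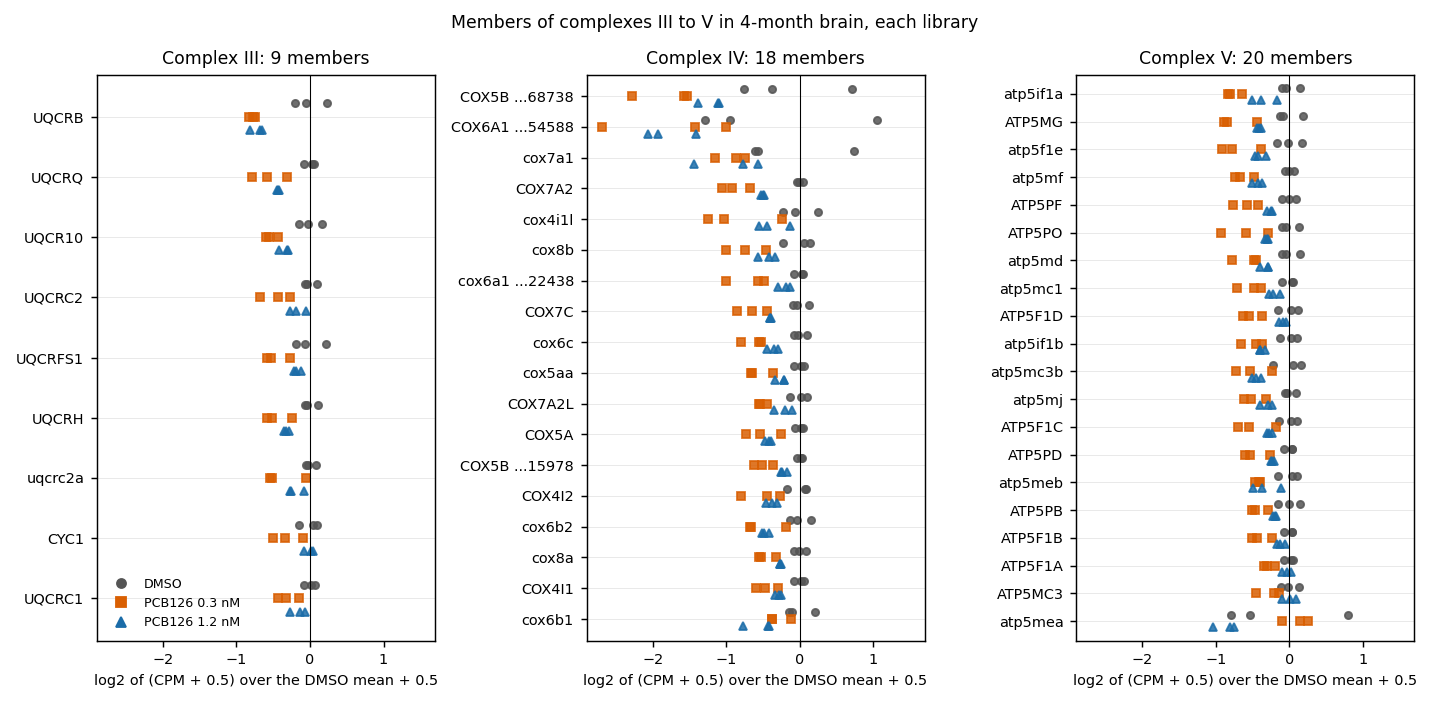
Each member's level in the 9 brain libraries as the log2 of its CPM (0.5 CPM added) over the DMSO mean, in 3 panels by complex. The 0.3 nM libraries lie below 0 for nearly all members of each complex, the 1.2 nM libraries lie mostly between them and the DMSO libraries, and a few members of low CPM spread widely within the DMSO group.

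Complex III is built on core proteins, a pair of redox subunits and small supernumerary subunits. In the 0.3 nM brains 6 of its 9 genes fell, with a median log2 fold change of -0.46. UQCR10, a small subunit that lies beside the Rieske protein, measured 53.9, 49.7 and 61.4 CPM with DMSO, 40.6, 37.4 and 36.2 CPM with 0.3 nM and 44.5, 44.2 and 40.9 CPM with 1.2 nM. UQCRQ, another small subunit, measured 59.3, 54.9 and 60.6 CPM with DMSO, 46.9, 38.6 and 33.7 CPM with 0.3 nM and 43.5, 43.0 and 42.5 CPM with 1.2 nM. For both genes the 6 exposed libraries lay below the 3 DMSO libraries. At 0.3 nM the edgeR log2 fold change was -0.53 (SE 0.0895, adjusted p = 0.00797) for UQCR10 and -0.55 (SE 0.105, adjusted p = 0.0110) for UQCRQ.

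All 4 supernumerary subunits of complex III fell at 0.3 nM, with a median log2 fold change of -0.54. UQCRH, the hinge protein at the docking site of cytochrome c, measured 92.2, 93.7 and 105 CPM with DMSO and 81.7, 64.2 and 67.3 CPM with 0.3 nM. Its log2 fold change was -0.45 (SE 0.0944, edgeR adjusted p = 0.0148), and the call was lost without 0.3 nM replicate 2 or replicate 3. UQCRB, which helps to hold ubiquinone, was picked out here after its values were seen, because it was the subunit of complex III with the steepest fall. It measured 3.31, 2.34 and 2.63 CPM with DMSO, 1.41, 1.44 and 1.33 CPM with 0.3 nM and 1.54, 1.35 and 1.58 CPM with 1.2 nM. That is a low level, and its call at 0.3 nM (a change of -49.5%, edgeR adjusted p = 0.0236) was lost without DMSO replicate 1, 0.3 nM replicate 2 or 0.3 nM replicate 3.

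Of the 3 core proteins 1 was called lower at 0.3 nM, and of the 2 redox subunits 1 was. The core protein UQCRC1, named after its values were seen, stood just over the threshold (log2 fold change -0.30, edgeR adjusted p = 0.0505). Every exposed library was below every DMSO library for UQCRC1. UQCRC2, a core protein, measured 122, 124 and 136 CPM with DMSO and 105, 79.1 and 93.6 CPM with 0.3 nM (log2 fold change -0.46, SE 0.105, edgeR adjusted p = 0.0195), a call lost without DMSO replicate 3, 0.3 nM replicate 2 or 0.3 nM replicate 3. Its zebrafish paralog uqcrc2a measured 20.6, 20.9 and 22.6 CPM with DMSO and 20.6, 14.7 and 14.5 CPM with 0.3 nM and was not called (log2 fold change -0.36, edgeR adjusted p = 0.0947). CYC1, the cytochrome c1 that hands electrons to cytochrome c, measured 138, 121 and 143 CPM with DMSO and 126, 94.0 and 105 CPM with 0.3 nM, and was not called either (log2 fold change -0.30, edgeR adjusted p = 0.0817). For CYC1 and uqcrc2a, 0.3 nM replicate 1 lay at the level of the lower DMSO libraries. UQCRFS1, the Rieske iron-sulfur protein, was named after its values were seen and fell with a log2 fold change of -0.46 (edgeR adjusted p = 0.0247).

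As a percentage of its DMSO level, the summed decrease at 0.3 nM was largest in complex IV of the 3 complexes, a description without a test of the difference between complexes. Its 18 genes summed to 1623, 1590 and 1761 CPM with DMSO and to 1278, 1025 and 1087 CPM with 0.3 nM, a change of -31.8% in the mean. The corresponding change was -24.5% for complex III and -26.4% for complex V. In complex IV 14 of the 18 genes fell, with a median log2 fold change of -0.59.

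COX7A2, a small membrane subunit that in mammals is the form found in most tissues, had the smallest p of all 47 members in the 0.3 nM brains. It measured 80.02, 81.2 and 84.5 CPM with DMSO, 51.3, 43.0 and 39.1 CPM with 0.3 nM and 57.9, 56.5 and 58.5 CPM with 1.2 nM. The 3 groups did not overlap, and the 0.3 nM libraries were the lowest. The change at 0.3 nM was -45.7% (log2 fold change -0.88, SE 0.0921, edgeR adjusted p = 0.00293). COX7A2L, a related protein that in mice links complex III to complex IV in supercomplexes, measured 27.8, 24.97 and 29.5 CPM with DMSO and 19.998, 18.7 and 18.5 CPM with 0.3 nM (log2 fold change -0.52, SE 0.0970, edgeR adjusted p = 0.00957).

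Other small membrane subunits of complex IV also fell at 0.3 nM. COX7C, a single-form membrane subunit, measured 148, 154 and 173 CPM with DMSO and 116, 87.2 and 101 CPM with 0.3 nM (log2 fold change -0.65, SE 0.101, edgeR adjusted p = 0.00709). The gene cox6c, for another small membrane subunit, measured 111, 115 and 127 CPM with DMSO and 81.6, 67.4 and 79.8 CPM with 0.3 nM (log2 fold change -0.63, SE 0.0892, edgeR adjusted p = 0.00558). In both genes all exposed libraries lay below all DMSO libraries, and both calls held in all 15 alternatives.

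Several complex IV subunits exist in paired forms, and both forms were lower at 0.3 nM in most pairs. Subunit 4 forms contact the matrix side, and in mammals COX4I1 is known for binding ATP as a brake on the enzyme. COX4I1 measured 242, 226 and 249 CPM with DMSO and 195, 173 and 159 CPM with 0.3 nM (log2 fold change -0.45, SE 0.0848, edgeR adjusted p = 0.0103). COX4I2, which in mammals is the form linked to lung and low oxygen, measured 57.3, 48.2 and 58.1 CPM with DMSO and 45.2, 31.0 and 40.0 CPM with 0.3 nM (log2 fold change -0.49, SE 0.126, edgeR adjusted p = 0.0291). The COX4I2 call was lost without DMSO replicate 1, DMSO replicate 3, 0.3 nM replicate 2 or 0.3 nM replicate 3. The remaining form, cox4i1l, was low, at 8.30, 7.37 and 10.4 CPM with DMSO and 7.28, 3.38 and 4.00 CPM with 0.3 nM, and was not called (log2 fold change -0.82, edgeR adjusted p = 0.0633).

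All 4 subunit 5 genes fell at 0.3 nM. COX5A, whose protein faces the matrix, measured 55.7, 51.9 and 55.0 CPM with DMSO and 45.5, 37.0 and 32.4 CPM with 0.3 nM (log2 fold change -0.50, edgeR adjusted p = 0.0153, lost without 0.3 nM replicate 2). Its paralog cox5aa measured 116, 108 and 118 CPM with DMSO and 88.4, 71.9 and 72.6 CPM with 0.3 nM (log2 fold change -0.55, edgeR adjusted p = 0.00778). The zinc-binding subunit COX5B, as ENSDARG00000015978, measured 195, 201 and 203 CPM with DMSO and 156, 129.5 and 139.7 CPM with 0.3 nM (log2 fold change -0.50, SE 0.0784, edgeR adjusted p = 0.00729). For these 3 genes no exposed library reached the lowest DMSO library. The second COX5B row was far lower and is described with the muscle markers below.

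Of the 5 subunit 6 genes 3 fell, and both subunit 8 genes did. The row cox6a1 (ENSDARG00000022438) measured 144, 132 and 142 CPM with DMSO and 94.0, 69.2 and 99.8 CPM with 0.3 nM (log2 fold change -0.67, SE 0.119, edgeR adjusted p = 0.00876). The pair cox6b1 and cox6b2 encode the subunit that bridges the partners of the complex IV dimer on the intermembrane side. For cox6b2 the values were 162, 153 and 186 CPM with DMSO and 147, 105 and 105 CPM with 0.3 nM (log2 fold change -0.49, edgeR adjusted p = 0.0316, lost in 4 of the 6 analyses that left out a library). For cox6b1 they were 49.5, 48.1 and 61.7 CPM with DMSO and 48.7, 40.6 and 40.8 CPM with 0.3 nM, with overlapping groups and no call (log2 fold change -0.29, edgeR adjusted p = 0.149). Of the smallest subunit, cox8a measured 152, 145 and 163 CPM with DMSO and 123, 107 and 104 CPM with 0.3 nM (log2 fold change -0.46, edgeR adjusted p = 0.00851). Its other form cox8b, which in mice is the form of heart and skeletal muscle, measured 69.3, 89.2 and 84.9 CPM with DMSO and 59.0, 40.4 and 48.3 CPM with 0.3 nM (log2 fold change -0.72, edgeR adjusted p = 0.0119). Without DMSO replicate 3 the log2 fold change of cox8b was -0.69 (edgeR adjusted p = 0.0371).

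In complex V 18 of the 20 genes fell at 0.3 nM, with a median log2 fold change of -0.49. All 5 genes of the catalytic head and central stalk fell, as did all 4 of the peripheral stalk, 5 of the 6 other membrane subunits, 2 of the 3 c-ring genes and both inhibitors. The catalytic pair, ATP5F1A and ATP5F1B, was named after its values were seen. ATP5F1B measured 803, 746 and 799 CPM with DMSO and 665, 552 and 576 CPM with 0.3 nM (log2 fold change -0.39, SE 0.0871, edgeR adjusted p = 0.0178). ATP5F1A measured 623, 582 and 635 CPM with DMSO and 535, 483 and 496 CPM with 0.3 nM (log2 fold change -0.28, SE 0.0767, edgeR adjusted p = 0.0352). Both were lower in every exposed library, by a smaller fold than the median of the complex. Both calls were lost without DMSO replicate 1, 0.3 nM replicate 2 or 0.3 nM replicate 3, and that of ATP5F1A also without DMSO replicate 3.

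The stalk and membrane subunits of complex V with the smallest p were atp5mf, ATP5PF and ATP5MG. The membrane subunit f gene atp5mf measured 180.3, 188 and 196 CPM with DMSO, 134, 112 and 117 CPM with 0.3 nM and 144, 132 and 140.2 CPM with 1.2 nM, with all exposed libraries below all DMSO libraries. Its log2 fold change at 0.3 nM was -0.63 (SE 0.0819, edgeR adjusted p = 0.0046). ATP5PF, coupling factor 6 of the peripheral stalk, measured 107, 114 and 123 CPM with DMSO and 84.8, 67.2 and 76.6 CPM with 0.3 nM (log2 fold change -0.59, SE 0.0899, edgeR adjusted p = 0.0067). ATP5MG, subunit g, which helps ATP synthase dimers to form, measured 133, 137 and 165 CPM with DMSO and 106, 78.2 and 80.3 CPM with 0.3 nM (log2 fold change -0.72, SE 0.121, edgeR adjusted p = 0.00797). None of the 3 genes overlapped between DMSO and 0.3 nM, and all 3 calls held in all 15 alternatives.

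The inhibitory factors encoded by atp5if1a and atp5if1b stop the enzyme from running backwards and splitting ATP. The gene atp5if1a measured 31.8, 30.5 and 36.4 CPM with DMSO, 18.6, 18.2 and 20.9 CPM with 0.3 nM and 23.1, 25.03 and 29.2 CPM with 1.2 nM. The 3 groups did not overlap, and the change at 0.3 nM was -41.6% (log2 fold change -0.78, SE 0.110, edgeR adjusted p = 0.00544). Its paralog atp5if1b measured 91.0, 108 and 101 CPM with DMSO, 72.7, 63.0 and 76.7 CPM with 0.3 nM and 75.6, 75.5 and 78.8 CPM with 1.2 nM (log2 fold change at 0.3 nM -0.50, SE 0.0889, edgeR adjusted p = 0.00886). Both exposed groups lay below DMSO for atp5if1b and overlapped each other.

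The 2 genes of complex V that were not called at 0.3 nM were ATP5MC3 and atp5mea. ATP5MC3, a gene for the c subunit that forms the rotor ring, measured 100.4, 94.2 and 112 CPM with DMSO and 87.9, 92.7 and 74.1 CPM with 0.3 nM (log2 fold change -0.27, edgeR adjusted p = 0.0958). The subunit e gene atp5mea measured 16.96, 14.1 and 43.5 CPM with DMSO and 29.7, 23.1 and 27.4 CPM with 0.3 nM (log2 fold change 0.10, SE 0.405, edgeR adjusted p = 0.894). The value of 43.5 CPM is that of DMSO replicate 3. Without that library atp5mea was higher at 0.3 nM, with a log2 fold change of 0.78 (edgeR adjusted p = 0.0115), and the members then stood at 29 lower and 1 higher.

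**Figure D2:**
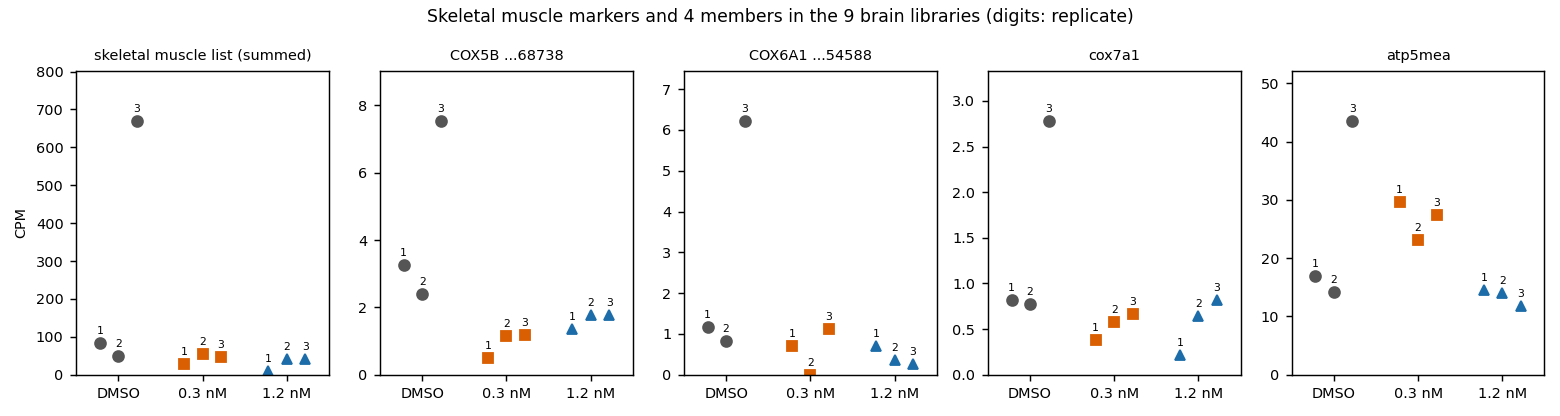
Summed CPM of the skeletal muscle markers and CPM of COX5B (ENSDARG00000068738), COX6A1 (ENSDARG00000054588), cox7a1 and atp5mea in the 9 brain libraries, one point per library with its replicate number. DMSO replicate 3, with 668.8 CPM of muscle markers, also holds the highest value of each of these 4 genes.

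DMSO replicate 3 was the library with the most muscle marker reads. Among the 3 DMSO brains it held the highest value for 39 of the 47 members and the lowest for 0. In a few members of low CPM its value was far above those of the other DMSO brains. COX5B (ENSDARG00000068738) measured 3.26, 2.39 and 7.53 CPM with DMSO, 0.511, 1.15 and 1.19 CPM with 0.3 nM and 1.37, 1.77 and 1.78 CPM with 1.2 nM. It fell at 0.3 nM with a log2 fold change of -2.22 (SE 0.459, edgeR adjusted p = 0.0146), which was -1.58 (adjusted p = 0.0274) without DMSO replicate 3. COX6A1 (ENSDARG00000054588) measured 1.18, 0.831 and 6.21 CPM with DMSO and 0.703, 0 and 1.11 CPM with 0.3 nM, with no call (edgeR log2 fold change -2.17, adjusted p = 0.194, and -0.73, adjusted p = 0.632, without DMSO replicate 3). The gene cox7a1, in mammals the heart and skeletal muscle form of subunit 7a, measured 0.816, 0.779 and 2.78 CPM with DMSO and 0.383, 0.575 and 0.667 CPM with 0.3 nM, with no call (edgeR log2 fold change -1.43, adjusted p = 0.138, and -0.56, adjusted p = 0.567, without DMSO replicate 3). For these 3 genes DMSO replicate 3 was the highest of the 9 brain libraries. Of the 13 skeletal muscle markers, 12 were highest in that library, and so were all 7 markers of meninges and fibroblasts. The part of the muscle signal in these 3 genes and in the other members was not tested.

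The higher dose gave a smaller difference from DMSO in adult brain, and both doses were compared with the same 3 DMSO libraries. At 1.2 nM the 47 genes summed to 4878, 4963 and 5101 CPM, a mean of 4980 ± 113 (SD, n = 3), a change of -15.4% from DMSO. Again every exposed library lay below every DMSO library. By edgeR's test 11 of the 47 fell and none rose at an adjusted p under 0.05, where 3.36% of all genes tested fell at that threshold. At an unadjusted p under 0.05 the members gave 35 lower and 0 higher, a count for which no share of all genes is given here. The median log2 fold change was -0.33 over the members and -0.03 over all genes tested. In 34 members all 1.2 nM libraries were below all DMSO libraries, against 17.2% of all genes tested.

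The count at 1.2 nM depended on the analysis. It was 26 with DESeq2, 21 with upper quartile scaling, 24 with all 24 libraries in a single fit and 22 with only the DMSO and 1.2 nM libraries. It was 0 without any one of the 3 exposed libraries, 3 without DMSO replicate 1, 17 without DMSO replicate 2 and 2 without DMSO replicate 3. The count over all genes moved as well. It was 657 lower and 1112 higher in the main fit, and larger with DESeq2 and in the single fit. Leaving out 1 library gave 13 (without 1.2 nM replicate 3) to 2263 (without DMSO replicate 2).

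**Figure D3:**
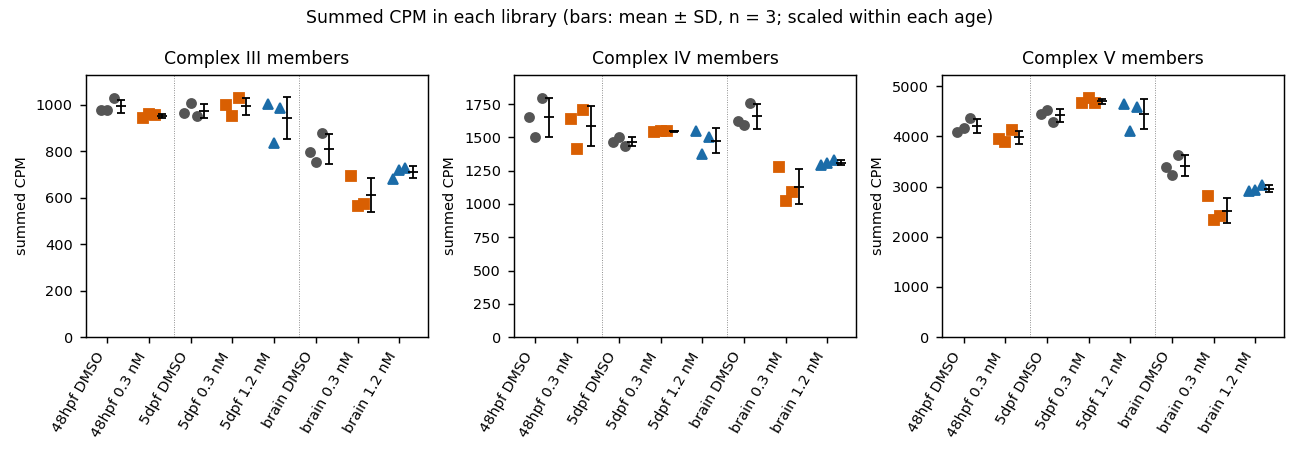
Summed CPM of the members of complexes III, IV and V in the 24 libraries, with each group's mean ± SD (n = 3). In brain the 0.3 nM group is lowest and the 1.2 nM group lies between it and DMSO for each complex. In embryos and larvae the group means are closer to each other than in brain. Each 0.3 nM larval library lies above each DMSO larval library for complexes IV and V, and each exposed embryo library below each DMSO one for complex III.

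The genes that fell at 1.2 nM were 3 of complex III, 6 of complex IV and 2 of complex V. They included COX7A2 (log2 fold change -0.51, edgeR adjusted p = 0.0195), atp5mf (-0.44, adjusted p = 0.0203), atp5if1b (-0.38, adjusted p = 0.0308) and UQCRQ (-0.44, adjusted p = 0.0328). In complex IV, cox6b1 measured 39.4, 31.0 and 39.6 CPM, all below the DMSO brains, and fell with a log2 fold change of -0.53 (edgeR adjusted p = 0.0327), whereas at 0.3 nM it was not called. COX5A measured 41.2, 40.3 and 38.8 CPM (log2 fold change -0.43, edgeR adjusted p = 0.0348). COX7C at 120.2, 119 and 119.6 CPM and cox6c at 86.6, 95.8 and 92.5 CPM also fell, with log2 fold changes of -0.40 and -0.36 (edgeR adjusted p = 0.0357 and 0.0346). The catalytic genes of complex V stood near the DMSO level, with log2 fold changes of -0.04 for ATP5F1A and -0.12 for ATP5F1B and no call. None of the 11 calls held in all alternatives, and all 11 were lost whenever 1 of the exposed libraries was left out.

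Set directly against each other, the doses gave no member at an adjusted p under 0.05 by edgeR, where 0.0972% of all genes tested passed. DESeq2 called 4 members, all higher at 1.2 nM, and over all genes it also called more than edgeR did. In another alternative atp5mea was called, lower at 1.2 nM. By edgeR 24 members had an unadjusted p under 0.05, a count for which no share of all genes is given here. The group means ran in the order 0.3 nM, 1.2 nM, DMSO from low to high for 43 of the 47 members, and this order was not counted over all genes. In 24 members every 1.2 nM library was above every 0.3 nM library, against 8.87% of all genes tested. The smallest adjusted p, 0.163 by edgeR, was that of ATP5F1D, the delta subunit of the central stalk, which measured 43.1, 37.8 and 35.9 CPM with 0.3 nM and 50.7, 52.4 and 53.8 CPM with 1.2 nM (log2 fold change 0.43). In 2 members, cox6b1 and atp5mea, every 1.2 nM library was below every 0.3 nM library, against 1673 of the 19548 genes tested.

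Genes that work beside complexes III to V were lower to different extents in the 0.3 nM brains. Of the subunits of complex I, which feeds electrons into the chain, 32 of the 39 tested fell (median log2 fold change -0.49), and of those of complex II 4 of 5 did. Cytochrome c gene cycsb fell with a log2 fold change of -0.54 (edgeR adjusted p = 0.00991) at 0.3 nM and stood at 0.05 at 1.2 nM. Of the assembly factors of complexes III to V 6 of 39 fell (median -0.24), among them cox14 (log2 fold change -0.71) and cox16 (-0.54), which help to build complex IV. Citric acid cycle genes gave 9 of 19, mitochondrial carriers and import genes 9 of 20, mitochondrial ribosomal proteins 14 of 73 (median -0.28) and glycolysis genes 8 of 27. The cytosolic ribosomal proteins gave 24 of 76 (median -0.38). None of these lists held a riser at 0.3 nM. Over all genes tested at that dose, 5.9% fell and 7.82% rose.

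At 1.2 nM complex I gave 11 of 39 lower (median -0.32), complex II 0 of 5 (2 at an unadjusted p under 0.05) and the cytosolic ribosomal proteins 66 of 76 (median -0.54). The assembly factors gave 5 of 39, the citric acid cycle 0 of 19 (4 lower and 2 higher at an unadjusted p under 0.05), carriers and import 1 of 20, mitochondrial ribosomal proteins 2 of 73 and glycolysis 2 lower and 1 higher of 27. These counts stand beside the 3.36% of all genes tested that fell. No test compared these lists between the doses. Among 16 regulators of respiratory genes 2 rose at each dose and none fell, where 7.82% of all genes tested rose at 0.3 nM and 5.69% at 1.2 nM. At an unadjusted p under 0.05 the regulators gave 2 higher and 0 lower at 0.3 nM, and 3 higher and 1 lower at 1.2 nM. PPARGC1A, a coactivator of mitochondrial gene expression, rose at 0.3 nM with a log2 fold change of 0.67 (edgeR adjusted p = 0.0135). NRF1, a transcription factor of respiratory genes, rose at 0.3 nM with 0.32 (edgeR adjusted p = 0.0241). At 1.2 nM PPARGC1A rose with 0.52 (edgeR adjusted p = 0.0388), as did ESRRA, a nuclear receptor of mitochondrial genes that was named after its values were seen, with 0.34 (edgeR adjusted p = 0.0364), while NRF1 stood at 0.21 with no call.

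The subunits of the same complexes that mitochondrial DNA encodes were not called at either dose by edgeR. At 0.3 nM the log2 fold change was -0.23 for MT-CYB of complex III, -0.30 for MT-CO1 (adjusted p = 0.151), -0.24 for MT-CO2 and -0.22 for MT-CO3 of complex IV, and 0.02 for MT-ATP6 and 0.11 for mt-atp8 of complex V. Over all 13 mitochondrially encoded subunits the count was 0 lower at 0.3 nM (median -0.22, with 3 lower and 1 higher at an unadjusted p under 0.05) and 1 lower at 1.2 nM (median -0.16), and their sum ranged from 34694 to 44278 CPM with DMSO and from 28781 to 41721 CPM with 0.3 nM.

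Cell type markers also moved in brain. Of 10 oligodendrocyte markers 4 fell at 0.3 nM and 1 at 1.2 nM, and their sum ranged from 10791 to 16176 CPM with DMSO, 7536 to 9331 CPM with 0.3 nM and 8544 to 10815 CPM with 1.2 nM. Of 9 markers of radial glia and astroglia tested 4 fell at each dose, and of 12 microglial markers 3 fell at each dose. Of 15 neuronal markers 3 rose and none fell at each dose, beside the same shares of all genes (7.82% and 5.69% higher, 5.9% and 3.36% lower), with sums of 5911 to 6729 CPM with DMSO, 6002 to 6668 CPM with 0.3 nM and 6603 to 7013 CPM with 1.2 nM. Of 7 erythrocyte markers 3 fell at 0.3 nM and 0 at 1.2 nM, and of 7 markers of meninges and fibroblasts 1 fell at each dose. None of the 8 endothelial markers, of the 10 skeletal muscle markers tested or of the heart markers was called at either dose by edgeR. The muscle markers had 1 and 5 lower at an unadjusted p under 0.05, against a DMSO group that includes replicate 3, and the endothelial ones had none at that p. The part of these cell types in the subunit genes was not tested.

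In embryos and larvae no member passed the test at either dose. At 48 hours 0 of 47 members were called by edgeR or DESeq2, none had an unadjusted p under 0.05 in either, and 0.00987% of all genes tested were called. The 47 genes summed to 6853 ± 296 CPM (SD, n = 3) with DMSO and 6525 ± 267 CPM (SD, n = 3) with 0.3 nM, and the member log2 fold changes ran from -0.34 (cox4i1l) to 0.30 (COX6A1, ENSDARG00000054588) around a median of -0.05. In larvae at 0.3 nM 0 members were called, 1 had an unadjusted p under 0.05 by either tool and 0% of all genes tested were called. The summed level was 6865 ± 188 CPM (SD, n = 3) with DMSO and 7236 ± 34.0 CPM (SD, n = 3) with 0.3 nM. Each 0.3 nM sum, at 7197 to 7261 CPM, lay above each DMSO sum, at 6669 to 7044 CPM. The median log2 fold change was 0.08, with 41 of 47 members positive. Over all genes tested the median lay between -0.0002 and 0.0024 in the 6 fits that each left out a library. In 9 members every 0.3 nM larval library was above every DMSO library and in 0 below, against 5.45% of all genes tested above. At 1.2 nM the sum was 6865 ± 476 CPM (SD, n = 3) and the median -0.01, with 0 members called, 2 at an unadjusted p under 0.05 by either tool and 0.046% of all genes called. Between the larval doses 0 members were called, 1 had an unadjusted p under 0.05 by either tool, and 0.023% of all genes tested passed.

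The genes that led in brain stood near their DMSO levels at the earlier ages. COX7A2 measured 87.9, 72.8 and 91.9 CPM in DMSO embryos and 96.6, 68.1 and 92.0 CPM in exposed embryos. In larvae it measured 58.0, 61.0 and 50.9 CPM with DMSO, 61.1, 63.4 and 65.1 CPM with 0.3 nM and 64.1, 54.4 and 60.1 CPM with 1.2 nM. The larval 0.3 nM libraries were thus slightly above the DMSO ones, by a log2 fold change of 0.16 that was not called. The inhibitor atp5if1a measured 35.8, 39.1 and 36.1 CPM in DMSO larvae, 40.0, 41.2 and 42.4 CPM with 0.3 nM and 36.9, 31.0 and 35.0 CPM with 1.2 nM. Its 0.3 nM larvae were the highest of the 3 groups, by a log2 fold change of 0.15 over DMSO that was not called, while the 0.3 nM brains were the lowest of the brain groups.

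**Figure D4:**
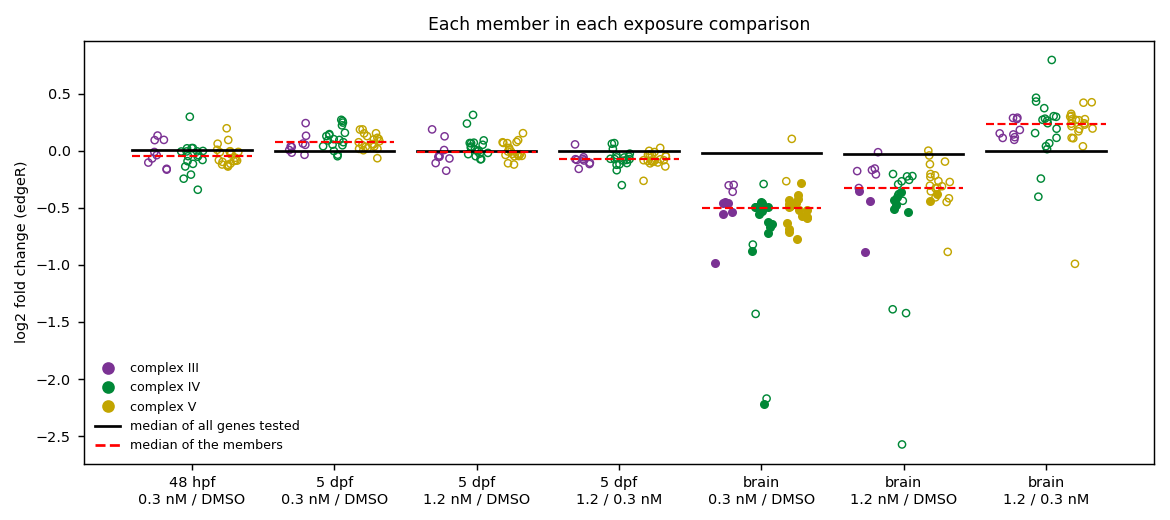
Log2 fold change of each of the 47 members in the 7 exposure comparisons, filled points for calls at an adjusted p under 0.05 and open points for the others. The black line is the median of all genes tested and the red dashed line that of the members, which lies at -0.50 and -0.33 in the brain at 0.3 and 1.2 nM and within 0.1 of 0 in embryos and in larvae against DMSO.

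The effect of 0.3 nM differed between brain and larvae when the difference itself was tested. In a fit of all 24 libraries, the brain effect minus the larval effect was negative for all 47 members, with a median log2 difference of -0.60. Over all genes tested the median lay between -0.054 and -0.02 in the 12 fits that each left out a library. By edgeR's test of that interaction 35 of the 47 passed, all lower in brain, where 3.03% of all genes tested did so. They were 6 of the 9 genes of complex III, 13 of 18 of complex IV and 16 of 20 of complex V. COX7A2 had a log2 difference of -1.06 (edgeR adjusted p = 0.00171) and atp5if1a one of -0.95 (edgeR adjusted p = 0.00146). Without brain 0.3 nM replicate 2 the count was 16. Over all genes it ranged from 540 to 2135 when 1 library was left out. For 1.2 nM 0 members passed by edgeR, where 1.49% of all genes tested did, and 5 passed by DESeq2. The median log2 difference was -0.32. At an unadjusted p under 0.05 the count was 24 members, for which no share of all genes is given here. Larvae were whole bodies with RNA from another extraction method, so age, tissue and extraction cannot be told apart in this contrast.

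The forms of the subunits were also compared between ages in DMSO fish, on a CPM scale shared by all 24 libraries. Embryos and larvae were whole bodies, while the adult samples were brains with RNA from another extraction method. Between larvae and brain, age, tissue and extraction therefore cannot be told apart. From embryos to larvae 7 of the 47 members rose and 16 fell by edgeR, where 32.3% of all genes tested rose and 31.4% fell. The split was 8 and 10 with RLE size factors, 7 and 11 with upper quartile scaling and 7 and 10 with DESeq2. Without 48 hours DMSO replicate 3, 9 rose and 5 fell. Between larvae and adult brain 10 members were higher in brain and 14 lower, where 39.9% of all genes tested were higher and 37.5% lower. That split was 8 and 20 with RLE size factors, 8 and 21 with upper quartile scaling and 9 and 20 with DESeq2. The median of all genes in the latter comparison was 0.06 with the main scaling and -0.08, -0.10 and -0.08 with those 3 alternatives. The calls named below held under all 3.

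**Figure D5:**
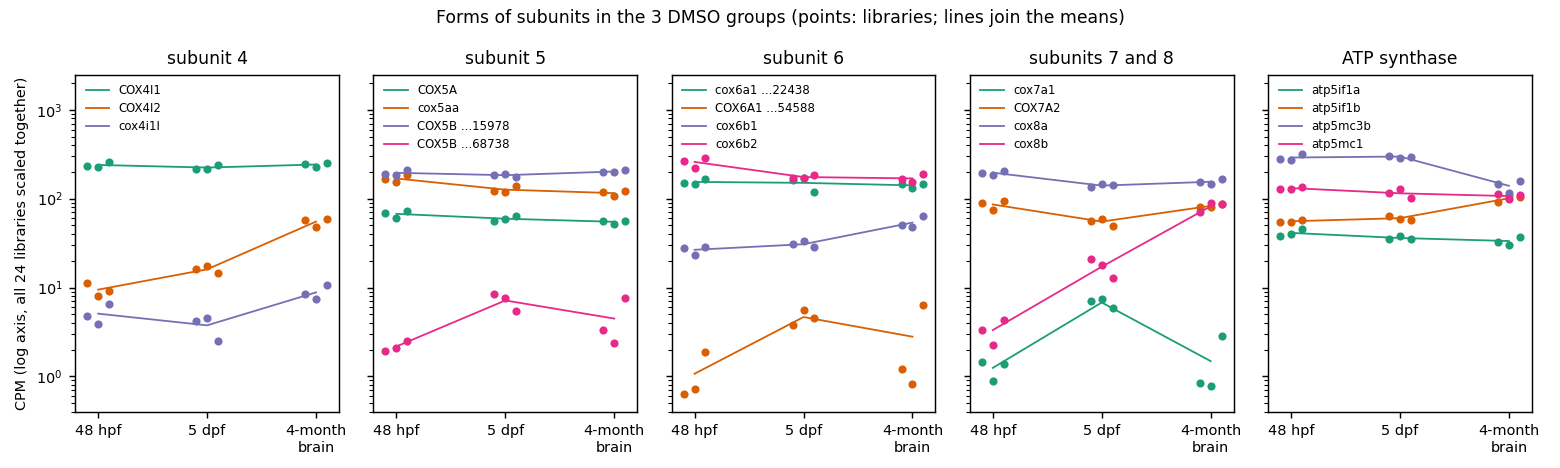
CPM on a log axis of paired forms of complex IV and complex V subunits in the DMSO libraries at 48 hours, 5 days and 4 months (brain). Of the subunit 8 forms cox8b is higher in larvae than in embryos and highest in brain, while cox8a lies between 134 and 208 CPM. Of the subunit 4 forms COX4I2 follows the same order, while COX4I1 lies between 214 and 259 CPM. Age and tissue cannot be told apart between larvae and brain.

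The widest differences between the DMSO groups were in minor forms of complex IV. The highest DMSO group mean was over 2 times the lowest for 8 members and at or under 2 times for the other 39. The gene cox8b measured 3.37, 2.26 and 4.32 CPM in embryos, 20.9, 17.8 and 12.8 CPM in larvae and 70.5, 89.1 and 86.8 CPM in brain. The 3 ages did not overlap, with log2 fold changes of 2.37 from embryos to larvae and 2.25 from larvae to brain (edgeR adjusted p = 3.48e-09 and 7.25e-11). Its other form cox8a had means of 196 ± 10.4, 140.4 ± 5.89 and 155 ± 10.8 CPM (SD, n = 3 each) at these ages.

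COX4I2 measured 11.2, 7.98 and 9.24 CPM in embryos, 16.2, 17.3 and 14.5 CPM in larvae and 58.3, 48.2 and 59.4 CPM in brain. It rose by log2 0.76 from embryos to larvae and was higher by 1.79 in brain (edgeR adjusted p = 0.00178 and 6.02e-09). COX4I1, the main form of the same subunit in mammals, had means of 239.9 ± 16.8, 224 ± 15.8 and 243 ± 15.1 CPM (SD, n = 3 each) and was called in neither comparison. All 4 genes of these pairs of forms, cox8a, cox8b, COX4I1 and COX4I2, were among those that fell in the 0.3 nM brains.

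Forms that were highest in whole larvae included cox7a1, with means of 1.24 ± 0.307 CPM in embryos, 6.78 ± 0.800 CPM in larvae and 1.48 ± 1.18 CPM in brain (SD, n = 3 each). The brain libraries measured 0.831, 0.778 and 2.84 CPM, the last being DMSO replicate 3 with its muscle markers. It rose by log2 2.44 from embryos to larvae and was lower in brain (log2 fold change -2.18, and -3.05 without that library). Among the c-ring genes atp5mc3b had means of 291 ± 25.9, 298 ± 8.30 and 139.7 ± 20.3 CPM and was lower in brain than in larvae (log2 fold change -1.09, edgeR adjusted p = 1.41e-09). COX7A2 had means of 86.2 ± 10.3, 55.2 ± 5.11 and 83.0 ± 2.95 CPM, fell from embryos to larvae and was higher in brain (log2 fold changes -0.64 and 0.59). The members highest in brain beside cox8b and COX4I2 included atp5if1b, cox6b1, COX7C and atp5mf, with log2 fold changes over larvae of 0.74, 0.81, 0.72 and 0.75. The catalytic genes ATP5F1A and ATP5F1B were lower in brain than in larvae, by log2 fold changes of -0.61 and -0.51.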

How the data were processed

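The authors deposited whole-number counts of reads per Ensembl gene for each library, and the files hold raw counts without normalization. Per the submitters' processing notes, FastQC, STAR, HTSeq and edgeR were used with the GRCz10 build, with versions not given in the sources used here. Per the labels' protocols, libraries were stranded and depleted of ribosomal RNA, and the deposited counts were made per strand, so antisense reads were kept apart. Of 32105 identifiers 26269 matched a symbol. Counts were fitted with edgeR 4.0.16 in R 4.3.3, where genes were filtered with filterByExpr, libraries scaled by TMM and the quasi-likelihood test run with robust estimation. Benjamini-Hochberg adjusted p-values covered every gene that passed the filter, with a threshold of 0.05. Each age had its own fit over all its groups, and 24 libraries shared a fit for age differences and interactions. The fit was tested on simulated data. SE is the log2 fold change over the square root of F. CPM uses TMM library sizes. DESeq2 1.42.0 was an alternative. The precision of each group value is that of 3 libraries. The p-values set a difference against the spread between libraries of the same group over the whole fit, estimated in part from all genes. No pair of libraries in a group agreed within sampling noise (lowest chi-square per degree of freedom 2.42).

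Same-numbered libraries deviated together at 48 hours (correlations of 0.288, 0.364 and 0.396). Larvae at 0.3 and 1.2 nM also did (0.0742, 0.269 and 0.218, against -0.2395 to 0.0193 for different numbers). Neither larval dose did so with larval DMSO (-0.169 to 0.0407), and brain libraries did not (-0.207 to 0.0721). The labels do not say what the numbers mean. The members and the other gene lists were chosen with earlier results of these data known. Genes named were, per complex, the 4 smallest and 2 largest p in brain at 0.3 nM, members called in other exposure comparisons, the paired forms and the inhibitors. Further lists gave up to 3 genes by p. Other genes are said to be chosen after their values were seen, and ATP5F1D and atp5mc3b were likewise named outside these rules. No sequences or gene lengths were used here.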

Additional observations from a re-analysis of the deposited data

Results flagged for a closer look

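The 0.3 nM effect differed between adult brain and larvae for 35 of the 47 members in the test of the interaction (edgeR, adjusted p under 0.05), each with a more negative effect in brain. The values that follow are log2 differences, brain effect minus larval effect, for the called members among the genes named by rule. That rule drew in part on the p-values in brain at 0.3 nM, which is a side of this contrast. The list is thus not free of selection on the brain values. In complex III they were -0.52 for UQCRC2, -0.54 for UQCR10, -0.50 for UQCRH and -0.58 for UQCRQ. In complex IV they were -0.52 for COX4I1, -0.62 for COX5A, -0.71 for cox5aa and -0.56 for COX5B (ENSDARG00000015978). The second COX5B row (ENSDARG00000068738) stood at -2.22, from few reads in brain, and at -1.58 without DMSO brain replicate 3 (edgeR adjusted p = 0.0203). Further complex IV values were -0.78 for cox6a1 (ENSDARG00000022438), -0.60 for cox6b2, -0.60 for cox6c, -1.06 for COX7A2, -0.79 for COX7C, -0.48 for cox8a, -0.81 for cox8b and -0.60 for COX7A2L. In complex V they were -0.95 for atp5if1a, -0.52 for atp5if1b, -0.70 for atp5mf, -0.86 for ATP5MG and -0.63 for ATP5PF. Of the 35 calls 16 held in all 18 alternatives.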

How the results depend on the processing

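No named member changed direction with a call under any alternative. At 0.3 nM in brain the member count stayed within 1.5 times of 38 under other scalings, filters, tools, depth and fits (29 to 44), and leaving out 1 library gave 23 to 42. At 1.2 nM it was 24 with all libraries in 1 fit, 26 with DESeq2, 22 with only the 2 groups compared, 21 with upper quartile scaling, and 0 to 17 leaving out 1 library. Between the brain doses it was 2, 4 and 1 under the first 3 of these. For the interaction at 1.2 nM it was 5 with DESeq2 and 0 to 7 leaving out 1 library, and at 0.3 nM 16 to 40. From embryos to larvae in DMSO it was 14 to 26. The cause of these moves was not tested. With the replicate number as a block 0 members were called at 48 hours, where same-numbered libraries deviated together (3 at an unadjusted p under 0.05). That block gave 37 and 7 in brain at 0.3 and 1.2 nM, and 36 and 2 for the interactions, without pairing from the design. Over all genes in brain at 0.3 nM, 2683 were called, 4120 with all libraries in 1 fit, 1310 with only the 2 groups and 960 to 3057 leaving out 1 library. At 1.2 nM it was 1769, 3435 in 1 fit, 2715 with DESeq2, 1027 with the replicate block and 13 to 2263 leaving out 1 library. Between the doses 19 were called, 176 in 1 fit, 161 with DESeq2 and 4 with the block, and for the interactions 1288 and 336 against 1989 and 995 with DESeq2. The planned corrections for coding length, alone and with the replicate block, were not run, since no lengths were used here. Members under about 10 CPM in brain rest on few reads.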
